A study of Arabidopsis thaliana with 12 samples.

Results

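The genes described here are 4 markers of oxidative and mitochondrial stress in Arabidopsis thaliana: the zinc finger gene STZ (AT1G27730, probe set 261648_at), AT2G21640 (263515_at), and the small heat shock protein genes AT5G51440 (248434_at) and AT2G29500 (266294_at). They were chosen by name. Each is read by 1 probe set, a group of short probes for the same transcript, so the set makes up 4 of the 22746 probe sets on the ATH1 expression array that are not controls. All 4 were among the 13687 probe sets with enough signal to be tested.

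The study asked what constitutive expression of HRE1 or HRE2, a pair of group VII ethylene response factors that are themselves induced by low oxygen, does to seedlings in air and under oxygen shortage. Whole seedlings aged 7 days, all in the Columbia-0 background and grown on agar with sucrose, were either wild type (WT) or carried 35S::HRE1 (HRE1ox) or 35S::HRE2 (HRE2ox). They were kept for 4 h in the dark at 23 °C, in air (21% oxygen) or hypoxia (1% oxygen). Each of the 6 groups had 2 biological replicates, 12 arrays in all. The 35S promoter from cauliflower mosaic virus drives a transgene in most cell types at all times, so the lines do not model induction by hypoxia, and the number of independent lines per genotype is not stated in the labels. The annotation used here gives no probe set for HRE1 or HRE2 themselves, so transgene levels were not analysed here.

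When oxygen runs short, the mitochondrial electron transport chain loses its final acceptor and reactive oxygen species can form. Cells answer such stress by transcription of nuclear genes, some for mitochondrial proteins. STZ, also named ZAT10, is a transcriptional repressor that is induced by cold, salt, strong light and oxidants. AT2G21640, also called UPOX for its up-regulation by oxidative stress, encodes a mitochondrial protein of unknown function that is widely used as a marker. Small heat shock proteins hold unfolding proteins in a soluble state: AT5G51440 encodes a mitochondrial form and AT2G29500 a cytosolic class I form.

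Values are levels on the scale log2(intensity + 1), and a difference of 1 on that scale is close to a doubling of intensity. Levels were compared with limma across all tested probe sets, errors of differences are limma's moderated standard errors, and a difference was called at a Benjamini-Hochberg adjusted p under 0.05. Probe sets below log2 4 on both arrays of a group were taken as near background there, and folds against such a group are given as lower limits, the other group's mean against log2 4. RNA came from whole seedlings, so a smaller number of cells of some type and less RNA per cell cannot be told apart.

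Several features of the arrays touch these values. The array titled as WT air replicate 2 carries the 35S::HRE2 genotype in another label and was grouped by its title. The 4 arrays of replicate 1 in the WT and HRE1ox groups stood apart from the other 8 in control probe sets: the spike-in control for thr, 5′ end, read 8.09 to 8.36 on them against 3.10 to 4.57. The 3′ minus 5′ difference for GAPDH, a measure of RNA integrity, was 1.88 to 2.20 on those 4 arrays and 2.41 to 2.94 on the others. The treatment itself was clear in all genotypes, since the 4 low-oxygen check genes rose in each (CML38, a calmodulin-like gene, by 6.39 in WT, 7.60 in HRE1ox and 6.86 in HRE2ox). The summed intensity of the 2 tested root markers of 6 listed, EXPA7 and EXPA18, was 49.17 to 90.12 in WT air and 12.8 to 13.3 in WT hypoxia, 65.8 to 104.7 and 13.8 to 16.5 in HRE1ox, and 25.0 to 48.7 and 11.5 to 11.6 in HRE2ox. Both root markers moved with the oxygen treatment, and their part in the results was not tested. The 6 listed markers of green tissue were not analysed here.

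Hypoxia raised STZ from near background to a clear signal in every genotype. In air STZ stood at 2.86 and 2.91 in WT (mean 2.89 ± 0.04, SD, n = 2), at 2.78 and 2.63 in HRE1ox (2.71 ± 0.10, SD, n = 2) and at 2.62 and 2.58 in HRE2ox (2.60 ± 0.03, SD, n = 2). In hypoxia it stood at 6.62 and 6.86 in WT (6.74 ± 0.17, SD, n = 2), at 5.61 and 5.84 in HRE1ox (5.73 ± 0.16, SD, n = 2) and at 6.06 and 6.02 in HRE2ox (6.04 ± 0.03, SD, n = 2). All 6 hypoxia arrays lay above all 6 air arrays, and the 3 genotypes did not overlap in hypoxia. On the linear scale the WT arrays went from intensities of 6.28 and 6.54 to 97.4 and 115.0. The difference between hypoxia and air was 3.85 ± 0.13 in WT (limma adjusted p = 2.94e-07), at least 6.68-fold. It was 3.02 ± 0.13 in HRE1ox (adjusted p = 9.58e-07), at least 3.31-fold, and 3.44 ± 0.13 in HRE2ox (adjusted p = 6.14e-07), at least 4.13-fold.

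STZ was also the member for which the lines differed from WT most clearly in hypoxia. Its level in HRE1ox hypoxia was 1.01 ± 0.13 lower than in WT hypoxia, a 2.02-fold lower value (95% confidence interval of the difference -1.32 to -0.71, limma adjusted p = 0.0101). STZ was the 1 member of 4 called in that comparison, in which 0.84% of all tested probe sets were called and 0.329% were called lower. Leaving out HRE1ox hypoxia replicate 1 ended the call (adjusted p = 0.0899), as did leaving out replicate 2 of WT hypoxia (adjusted p = 0.0893), although the difference stayed between -1.13 and -0.90 whichever array was left out. It was -1.02 without the 4 arrays that stood apart (adjusted p = 0.2) and also missed the threshold when only the 4 arrays of the comparison were fitted (adjusted p = 0.343). In HRE2ox hypoxia STZ was 0.70 ± 0.13 below WT hypoxia (interval -1.0 to -0.39, adjusted p = 0.141), a difference that was not called. In that comparison 0 of the 4 members were called by limma, against 0.0731% of all tested probe sets. At an unadjusted p under 0.05 there were 3 of 4 members, against 9.05% of all tested probe sets.

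In air the STZ values of the lines were near background and no difference from WT was called. The difference was -0.18 ± 0.13 for HRE1ox (interval -0.49 to 0.12, limma adjusted p = 0.76) and -0.29 ± 0.13 for HRE2ox (interval -0.59 to 0.02, adjusted p = 0.36). Between the lines, HRE1ox minus HRE2ox was 0.11 in air and -0.32 in hypoxia, with adjusted p = 0.798 and 0.531. The STZ response to hypoxia was smaller in HRE1ox than in WT by 0.83 ± 0.19 (interval -1.26 to -0.40, unadjusted p = 0.00168), and this test of the difference in response was not called (adjusted p = 0.255). The same difference for HRE2ox was -0.41 ± 0.19 (interval -0.84 to 0.02, adjusted p = 1). Since the air levels were near background, the size of each STZ response carries that limit.

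AT2G21640 rose in WT and HRE2ox, while its rise in HRE1ox was not called. In WT it stood at 5.32 and 4.75 in air (5.03 ± 0.41, SD, n = 2) and at 6.20 and 6.30 in hypoxia (6.25 ± 0.07, SD, n = 2). In HRE1ox it stood at 4.93 and 5.01 in air (4.97 ± 0.06, SD, n = 2) and at 5.50 and 5.07 in hypoxia (5.28 ± 0.31, SD, n = 2). In HRE2ox it stood at 4.08 and 3.92 in air (4.00 ± 0.11, SD, n = 2) and at 5.62 and 5.74 in hypoxia (5.68 ± 0.09, SD, n = 2). The hypoxia arrays lay above the air arrays within each genotype, by only a small margin in HRE1ox. The lowest levels of all were the pair from HRE2ox air, which lay at about log2 4 with replicate 2 under it. Folds against that group carry this limit.

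The hypoxia difference of AT2G21640 was 1.22 ± 0.20 in WT, 2.32-fold (interval 0.75 to 1.68, limma adjusted p = 0.00619). It was 1.68 ± 0.20 in HRE2ox, 3.21-fold (interval 1.22 to 2.14, adjusted p = 0.000939). In HRE1ox it was 0.32 ± 0.20 (interval -0.15 to 0.78, adjusted p = 0.407). The test of the difference in response between the lines, HRE1ox minus HRE2ox, gave -1.37 ± 0.29 (interval -2.02 to -0.72, unadjusted p = 0.000991, adjusted p = 0.158). HRE1ox minus WT gave -0.90 ± 0.29 (interval -1.55 to -0.25, adjusted p = 0.616) and HRE2ox minus WT 0.47 ± 0.29 (interval -0.18 to 1.12, adjusted p = 1). None of these differences in response passed the threshold in the fit without a block, so the called rises in WT and HRE2ox are not shown to differ from the value in HRE1ox.

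The level of AT2G21640 in HRE2ox air was 1.04 ± 0.20 below WT air, a 2.05-fold lower value (interval -1.50 to -0.58, unadjusted p = 0.00062). The adjusted p was 0.0577, just outside the threshold. Of the 4 members 0 were called in that comparison by limma, against 0.935% of all tested probe sets. AT2G21640 was the 1 member of 4 with an unadjusted p under 0.05, against 15.2% of all tested probe sets. Without WT air replicate 2, whose labels conflict on the genotype, the difference was -1.32. It was -0.75 without the 4 arrays that stood apart, WT air replicate 1 among them. Each of these fits kept 1 WT air array, and AT2G21640 differed between the 2, at 5.32 and 4.75. In HRE1ox hypoxia its level was 0.97 ± 0.20 below WT hypoxia (interval -1.43 to -0.50, adjusted p = 0.0825). That difference was called with the 4 arrays that stood apart as a block, chosen after seeing the data (adjusted p = 0.0174). It was also called with the replicate number as a block over the 8 WT and HRE1ox arrays (adjusted p = 0.0384). Of the 11 alternatives besides leaving out single arrays, 9 left it uncalled, with adjusted p up to 0.478. In HRE2ox hypoxia the level of AT2G21640 was 0.57 ± 0.20 below WT hypoxia (interval -1.03 to -0.11, adjusted p = 0.429). In air, HRE1ox and WT overlapped, with a difference of -0.07 ± 0.20 (interval -0.53 to 0.40, adjusted p = 0.98). HRE1ox air exceeded HRE2ox air by 0.97 ± 0.20 (interval 0.51 to 1.43, adjusted p = 0.0886), and in hypoxia the order of the lines turned, with HRE1ox 0.40 below HRE2ox (adjusted p = 0.689).

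AT5G51440, the mitochondrial small heat shock gene, was near background in air in all 3 genotypes and above it in hypoxia, with wide gaps between replicates. Its air levels were 2.89 and 2.95 in WT (2.92 ± 0.04, SD, n = 2), 2.86 and 3.11 in HRE1ox (2.98 ± 0.18, SD, n = 2) and 2.93 and 2.89 in HRE2ox (2.91 ± 0.02, SD, n = 2). In hypoxia it stood at 5.65 and 4.67 in WT (5.16 ± 0.69, SD, n = 2), at 4.66 and 4.23 in HRE1ox (4.45 ± 0.30, SD, n = 2) and at 3.60 and 4.56 in HRE2ox (4.08 ± 0.67, SD, n = 2). All 6 hypoxia arrays exceeded all 6 air arrays, but HRE2ox hypoxia replicate 1 stayed under log2 4. The replicates differed by 0.98 in WT hypoxia, with replicate 1 higher.

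The hypoxia difference of AT5G51440 was 2.24 ± 0.35 in WT (interval 1.44 to 3.03, limma adjusted p = 0.00437), at least 2.23-fold. That WT value was 1.72 without the 4 arrays that stood apart and was then not called (adjusted p = 0.143). In HRE1ox the difference was 1.46 ± 0.35 (interval 0.67 to 2.26, adjusted p = 0.0252), at least 1.36-fold. This call was lost on leaving out any 1 of the 4 HRE1ox arrays, with adjusted p = 0.12 and 0.0729 without air replicates 1 and 2 and 0.139 and 0.0543 without hypoxia replicates 1 and 2. Without the 4 arrays that stood apart the HRE1ox difference was 1.12 (adjusted p = 0.229). In HRE2ox the difference was 1.17 ± 0.35 (interval 0.37 to 1.97, adjusted p = 0.094) and was not called. It was 1.65 and called without HRE2ox hypoxia replicate 1 (adjusted p = 0.0421), and 0.69 at the lowest. It was also called with the 4 arrays that stood apart as a block (adjusted p = 0.0389).

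No difference between genotypes was called for AT5G51440. In hypoxia HRE1ox was 0.71 ± 0.35 below WT (interval -1.51 to 0.08, limma adjusted p = 0.725) and HRE2ox 1.08 ± 0.35 below WT (interval -1.88 to -0.29, adjusted p = 0.379). Leaving out 1 array moved these values between -1.20 and -0.23 for HRE1ox and between -1.57 and -0.59 for HRE2ox, with none called. The 2 lines overlapped in hypoxia, with HRE1ox 0.37 ± 0.35 above HRE2ox (adjusted p = 0.92). In air, where every group was near background, the differences from WT were 0.06 and -0.01. The differences in response were -0.78 ± 0.50 for HRE1ox minus WT (interval -1.90 to 0.35) and -1.07 ± 0.50 for HRE2ox minus WT (interval -2.19 to 0.06), with adjusted p = 1 for each. The intervals of these differences in response run from well below 0 to above it, so a sizeable difference in either line is neither shown nor excluded.

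AT2G29500, the cytosolic small heat shock gene, had the narrowest range of the 4 and rose beyond the threshold in HRE2ox. Its air levels were 4.90 and 5.01 in WT (4.95 ± 0.07, SD, n = 2), 5.23 and 4.93 in HRE1ox (5.08 ± 0.21, SD, n = 2) and 4.77 and 4.54 in HRE2ox (4.65 ± 0.17, SD, n = 2). In hypoxia it stood at 5.62 and 5.44 in WT (5.53 ± 0.12, SD, n = 2), at 5.45 and 5.23 in HRE1ox (5.34 ± 0.16, SD, n = 2) and at 5.95 and 5.67 in HRE2ox (5.81 ± 0.20, SD, n = 2). HRE2ox held both the lowest air levels and the highest hypoxia levels. Air and hypoxia arrays overlapped in HRE1ox, and did not in WT or HRE2ox.

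The hypoxia difference of AT2G29500 was 1.16 ± 0.17 in HRE2ox, 2.23-fold (interval 0.78 to 1.54, limma adjusted p = 0.00254). In WT it was 0.58 ± 0.17, 1.49-fold (interval 0.20 to 0.95, adjusted p = 0.0851), and in HRE1ox 0.26 ± 0.17 (interval -0.12 to 0.64, adjusted p = 0.403). The WT difference was called with the 4 arrays that stood apart as a block (adjusted p = 0.0266). It was also called with the replicate number as a block, over the 8 WT and HRE1ox arrays (adjusted p = 0.0187) or all arrays (adjusted p = 0.0338). Of the 10 alternatives besides leaving out single arrays, the other 7 left it uncalled. The WT difference was 0.44 without the 4 arrays that stood apart. With single arrays left out it ranged from 0.49 to 0.66 and was never called. The test of the difference in response, HRE1ox minus HRE2ox, gave -0.90 ± 0.24 (interval -1.43 to -0.36, unadjusted p = 0.00405, adjusted p = 0.316). HRE2ox minus WT gave 0.58 ± 0.24 (interval 0.05 to 1.12) and HRE1ox minus WT -0.32 ± 0.24 (interval -0.85 to 0.22), with adjusted p = 1 for each. Between genotypes in hypoxia, HRE2ox was 0.28 ± 0.17 above WT (interval -0.10 to 0.66, adjusted p = 0.701) and HRE1ox 0.19 ± 0.17 below it (interval -0.57 to 0.19, adjusted p = 0.96). In air the differences from WT were 0.13 ± 0.17 for HRE1ox and -0.30 ± 0.17 for HRE2ox, with adjusted p = 0.903 and 0.439.

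**Figure D1:**
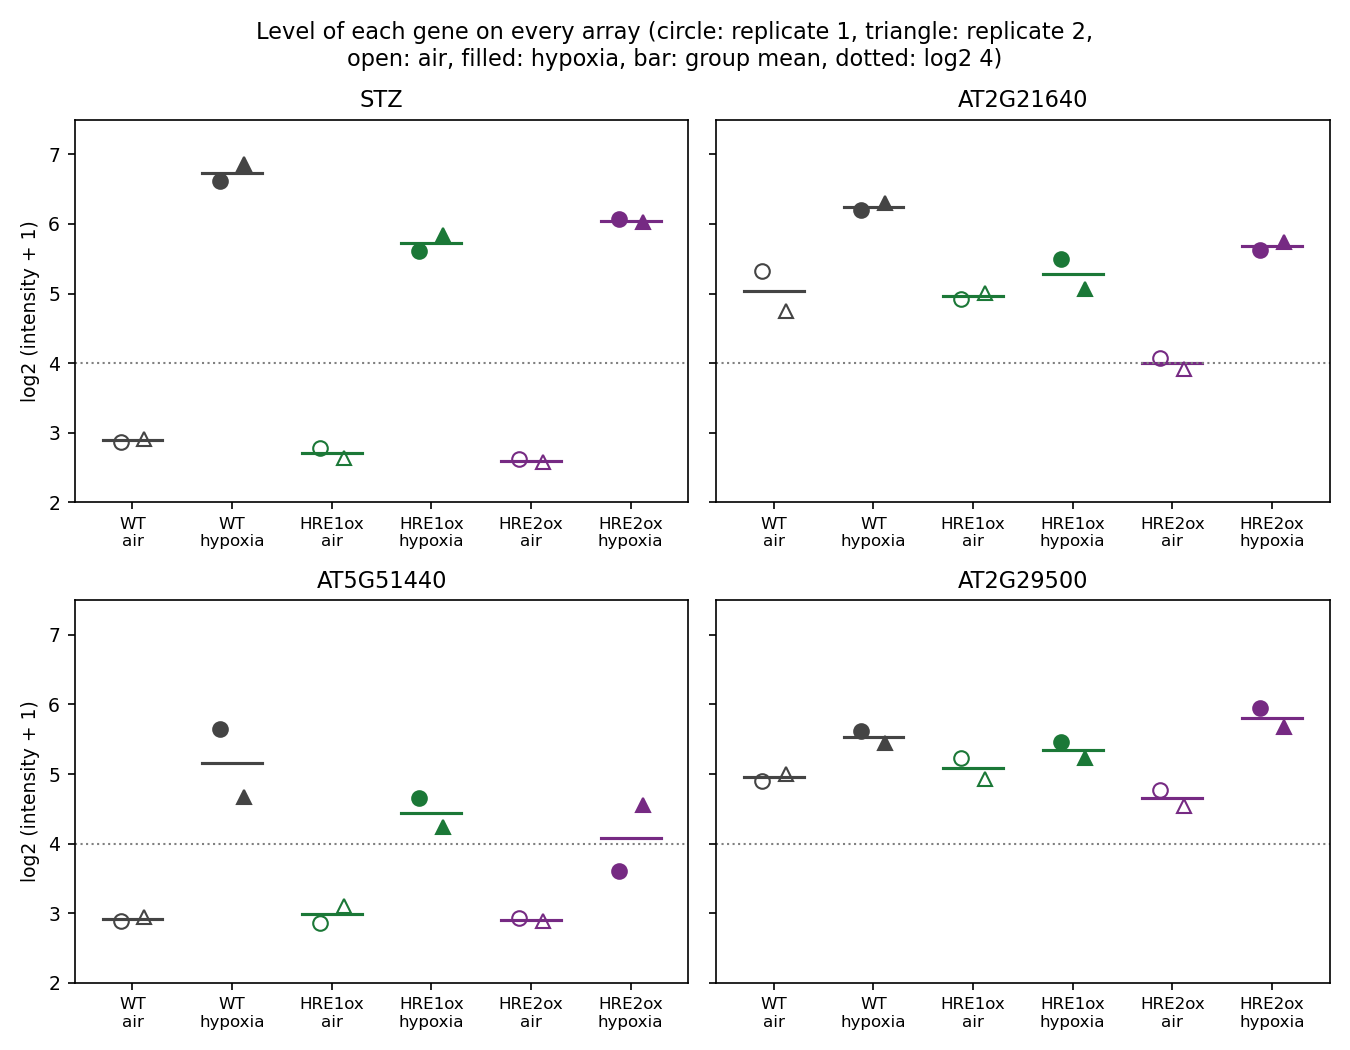
Levels of the 4 genes, log2(intensity + 1), on each of the 12 arrays by group, with circles for replicate 1, triangles for replicate 2, open symbols for air, filled symbols for hypoxia, bars for group means and a dotted line at log2 4. STZ and AT5G51440 lie under the line on every air array, and the AT5G51440 replicates of WT hypoxia are 0.98 apart.

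Set side by side, the 4 genes had higher means in hypoxia than in air in every genotype, and the differences passed the threshold in 8 of 12 tests. In WT, 3 of 4 members rose (all but AT2G29500), where 6.58% of all tested probe sets were called and 3.31% were called higher. In HRE1ox, 2 of 4 rose (STZ and AT5G51440), where 12.4% were called and 5.31% were called higher. In HRE2ox, 3 of 4 rose (all but AT5G51440), where 6.96% were called and 3.38% were called higher. The median difference of the 4 members was 1.73, 0.89 and 1.43 in WT, HRE1ox and HRE2ox, and the median over all tested probe sets was -0.01, 0.0037 and -0.03. With STZ and AT5G51440 at their lower limits, the members' medians were 1.19, 0.38 and 1.42. Without WT air replicate 2, the array with the conflicting label, the same 3 members were called in WT, and AT2G21640 had the smallest called difference, 0.93 (adjusted p = 0.0411). Without the 4 arrays that stood apart, which left 1 array in each WT and HRE1ox group, 2 members were called in WT (STZ and AT2G21640), 1 in HRE1ox (STZ) and the same 3 in HRE2ox. STZ and AT5G51440 lay under log2 4 on every air array and had enough signal to be tested only through hypoxia arrays, which favours a called rise. Their calls are therefore not on a par with the shares over all tested probe sets. The genes were picked with earlier results of these arrays known, so these counts describe the 4 genes and are no test of the set.

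**Figure D2:**
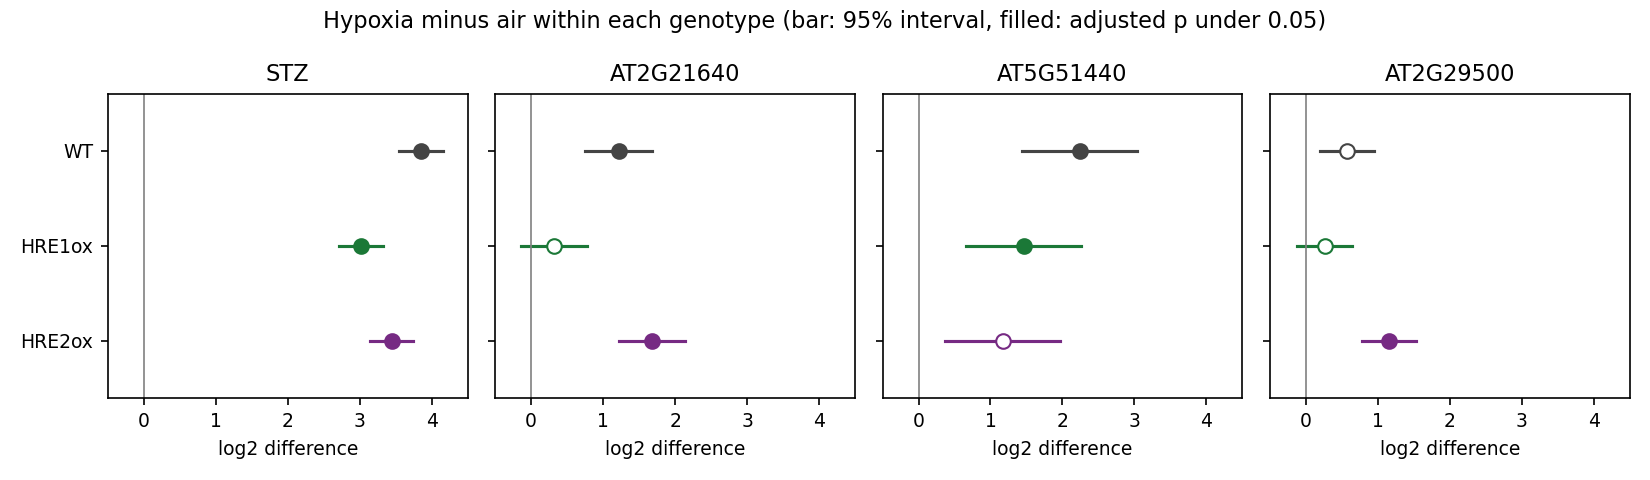
Difference between hypoxia and air (log2) for each of the 4 genes in WT, HRE1ox and HRE2ox, with 95% confidence intervals from limma; filled points passed an adjusted p of 0.05. The plotted STZ differences run from 3.02 to 3.85, but STZ and AT5G51440 were near background in air, so their rises are known only as lower limits and their sizes have no order. AT2G21640 and AT2G29500 have their smallest in HRE1ox, 0.32 and 0.26.

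Between genotypes, in the fit without a block, the called difference was that of STZ in HRE1ox hypoxia. In HRE1ox air, 0 of 4 members were called against WT air, where limma called 0.00731% of all tested probe sets, and 0 of 4 had an unadjusted p under 0.05, against 9.78% of all. Between the lines 0 of 4 were called in air and 0 of 4 in hypoxia, against 0.533% and 0.65% of all tested probe sets. At an unadjusted p under 0.05 there were 2 of 4 in each, against 13.2% and 8.67% of all. For the differences in response HRE1ox minus WT, HRE2ox minus WT and HRE1ox minus HRE2ox, 0 of 4 were called in each, against 0.0804%, 0.0292% and 0.292% of all tested probe sets. At an unadjusted p under 0.05 there were 2, 1 and 2 of 4, against 5.57%, 2.59% and 6.79% of all. With the 4 arrays that stood apart as a block, calls were also made for STZ in HRE2ox hypoxia against WT hypoxia (-0.74, adjusted p = 0.0392), and for AT2G21640 in HRE2ox air against WT air (-0.93, adjusted p = 0.0246), HRE1ox air against HRE2ox air (0.87, adjusted p = 0.0389) and the difference in response HRE1ox minus HRE2ox (-1.37, adjusted p = 0.0349). The comparisons with WT share the WT arrays, and those between lines share theirs.

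**Figure D3:**
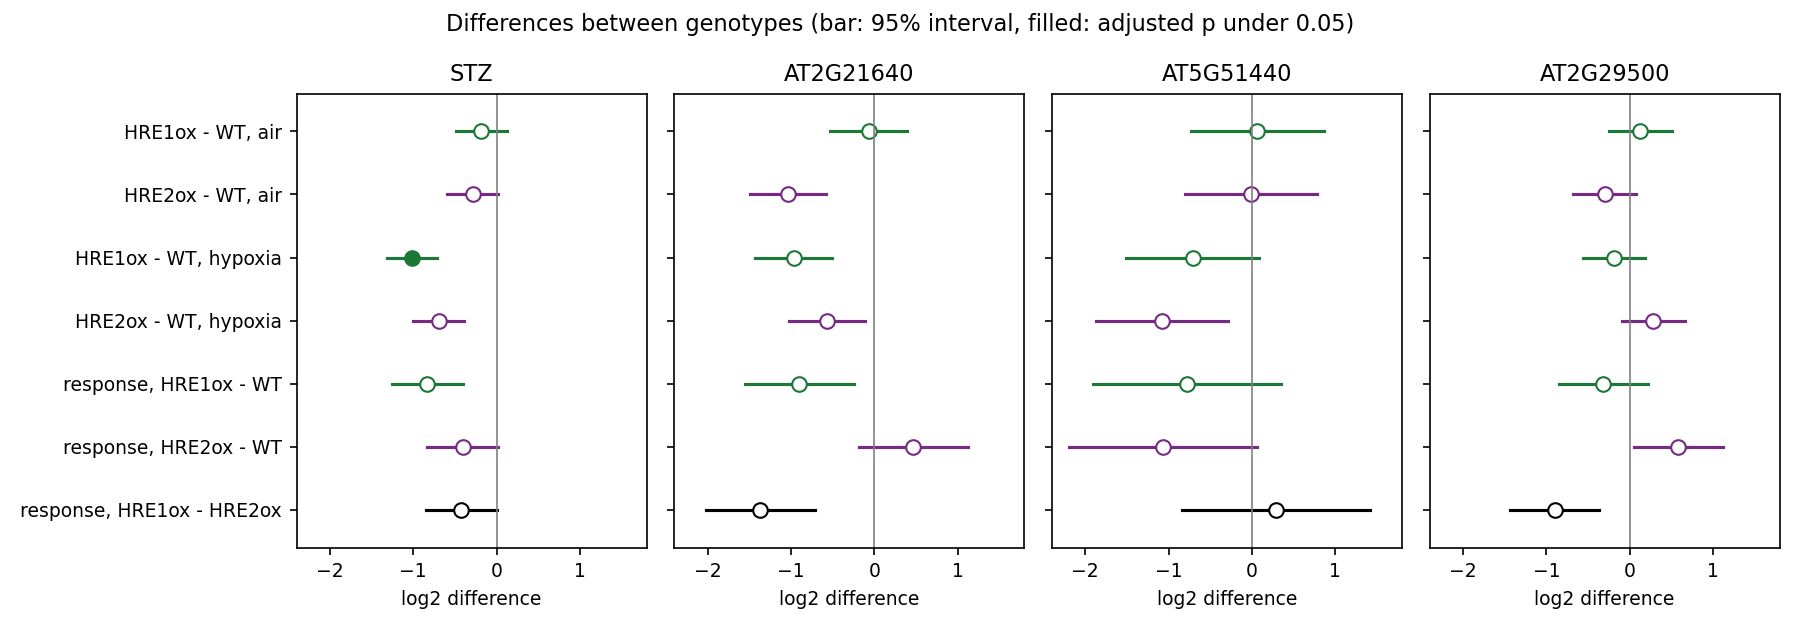
Differences between genotypes (log2) for each of the 4 genes in air, in hypoxia and in the response to hypoxia, with 95% confidence intervals from limma; filled points passed an adjusted p of 0.05. The filled point is STZ in HRE1ox minus WT under hypoxia, at -1.01.

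Ordered by level, STZ ran from WT hypoxia through HRE2ox hypoxia and HRE1ox hypoxia to WT air, HRE1ox air and HRE2ox air. Among its neighbours in that order, HRE1ox hypoxia and WT air differed by 2.84 (limma adjusted p = 1.34e-06, where 12.3% of all tested probe sets were called), and no other neighbouring pair of STZ was called. All STZ air groups were near background, so the order among them carries no weight. AT2G21640 ran through the same order of groups, with that limit, and no neighbouring pair was called. Its widest step was 0.97, from HRE1ox air down to HRE2ox air (adjusted p = 0.0886). AT5G51440 ran from WT hypoxia through HRE1ox hypoxia and HRE2ox hypoxia to the air groups, with a widest step of 1.09 from HRE2ox hypoxia to HRE1ox air (adjusted p = 0.0906). AT2G29500 ran from HRE2ox hypoxia through WT hypoxia and HRE1ox hypoxia to HRE1ox air, WT air and HRE2ox air, in steps of at most 0.30, none of them called. WT hypoxia was thus the highest group for 3 of the 4 genes, and HRE2ox hypoxia for AT2G29500.

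Of 23 listed genes of mitochondrial dysfunction, which include AT2G21640 and AT5G51440, 9 had a probe set of their own and 8 were tested. In WT 3 rose and 0 fell (median difference 0.65), in HRE1ox 2 rose and 1 fell (median 0.19), and in HRE2ox 3 rose and 0 fell (median 1.09), beside the medians near 0 over all tested probe sets given above. Without AT2G21640 and AT5G51440, 6 tested genes were left. Of these 1 rose in WT, 1 rose and 1 fell in HRE1ox, and 2 rose in HRE2ox, where limma called 6.58%, 12.4% and 6.96% of all tested probe sets. AT2G41730, a gene of little-known function, rose by 3.33 ± 0.38 in WT (limma adjusted p = 0.000595), by 2.63 ± 0.38 in HRE1ox (adjusted p = 0.00164) and by 4.15 ± 0.38 in HRE2ox (adjusted p = 0.000167). Its probe set is of a type that may bind more than 1 transcript. Its replicates in WT air were 6.31 and 5.02, while those in WT hypoxia were 9.25 and 8.75.

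AT5G09570, which encodes a small mitochondrial protein with cysteine motifs, stood at 6.31 and 5.82 in WT air and at 5.85 and 5.87 in WT hypoxia. It stood at 3.68 and 3.69 in HRE2ox air, near background, and at 5.08 and 4.85 in HRE2ox hypoxia. Both HRE2ox air arrays lay below all other arrays of the gene, and WT arrays were high in air and hypoxia alike. It rose with hypoxia in HRE2ox by 1.28 ± 0.16 (limma adjusted p = 0.00131), at least 1.95-fold, and in WT the difference was -0.21 ± 0.16 (adjusted p = 0.655). In air HRE2ox minus WT was -2.38 ± 0.16 (adjusted p = 0.000261), at least 4.18-fold lower in HRE2ox. That call narrowly missed the threshold without the 4 arrays that stood apart (adjusted p = 0.0517). AT2G21640 also had its lowest mean in HRE2ox air, 2.05-fold below WT air, a difference that was not called (limma adjusted p = 0.0577).

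AT5G43450, of the 2-oxoglutarate-dependent oxygenase family, stood at 7.77 and 7.83 in HRE1ox air and at 7.27 and 7.32 in HRE1ox hypoxia. It was the listed gene that fell in HRE1ox, with a difference of -0.50 ± 0.13 (limma adjusted p = 0.0393). That call was lost in 10 of the 12 fits that left out 1 array, with adjusted p up to 0.16. In WT hypoxia it stood at 8.59 and 8.69, and HRE1ox hypoxia was 1.34 ± 0.13 lower (adjusted p = 0.0034). Without the 4 arrays that stood apart the difference was -1.37 and was not called (adjusted p = 0.197). In WT air AT5G43450 stood at 8.31 and 8.34, above both HRE1ox air arrays, although no difference was called there. STZ and AT5G43450 were both lower in HRE1ox hypoxia than in WT hypoxia. For AT5G43450 the lower level was seen in air too, where STZ was near background.

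Of 19 listed small heat shock protein genes, AT5G51440 and AT2G29500 among them, 10 had a probe set of their own and 7 were tested. In WT 1 rose (AT5G51440), in HRE1ox 2 rose (AT5G51440 and AT4G21870) and in HRE2ox 1 rose (AT2G29500), and 0 fell in any genotype; the medians were 0.58, 0.26 and 0.63. Of the 5 tested besides the members, 0 were called in WT, 1 in HRE1ox and 0 in HRE2ox, against 6.58%, 12.4% and 6.96% of all tested probe sets. AT4G21870, a small heat shock gene already well expressed in air, went from 8.23 and 7.59 to 9.92 and 9.09 in HRE1ox, a rise of 1.60 ± 0.35 (limma adjusted p = 0.015). Its differences in WT and HRE2ox were 1.10 and 1.19 and were not called (adjusted p = 0.112 and 0.0823). The HRE1ox call was lost without HRE1ox air replicate 2 or HRE1ox hypoxia replicate 1, with adjusted p up to 0.104.

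**Figure D4:**
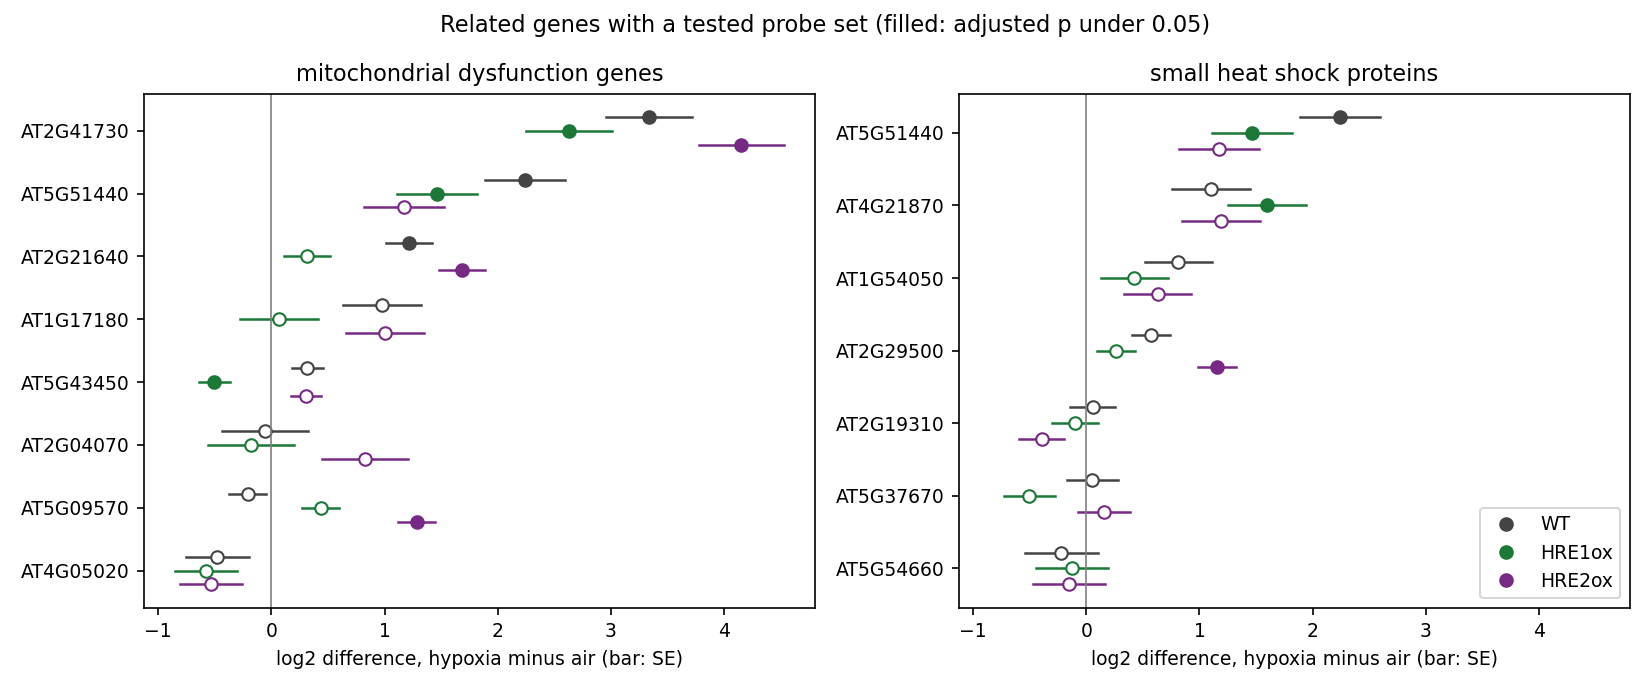
Differences between hypoxia and air (log2, bars are limma standard errors) of the tested genes of mitochondrial dysfunction and of the small heat shock proteins, in WT, HRE1ox and HRE2ox; filled points passed an adjusted p of 0.05. AT2G41730 passed in all 3 genotypes, by 2.63 to 4.15, while AT5G09570 passed in HRE2ox, at 1.28.

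Heat shock factors and large chaperones had 3 tested genes of 22 listed. Between hypoxia and air, 0 of them were called by limma or had an unadjusted p under 0.05 in any genotype. They were the HSP70 relatives AT5G02490 and AT3G09440, with differences of 0.30, -0.18 and 0.06 and of -0.32, -0.89 and 0.46 in WT, HRE1ox and HRE2ox, and the immunophilin AT5G48570, with 0.16, -0.17 and 0.39. Enzymes that remove reactive oxygen had 5 tested genes of 24 listed. Between hypoxia and air, 0 of them were called or had an unadjusted p under 0.05 in any genotype. These were the chloroplast ascorbate peroxidases SAPX and TAPX, the glutathione reductases AT3G24170 and AT3G54660 and the mitochondrial peroxiredoxin AT3G06050, with differences between -0.18 and 0.19 in the 3 genotypes. Their levels were 7.98 or higher in every group mean, well above background. SAPX (AT4G08390) was called lower in HRE2ox air than in WT air, by 0.82, where 0.935% of all tested probe sets were called. That call was lost in all 12 fits that left out 1 array. Between hypoxia and air 6.58%, 12.4% and 6.96% of all tested probe sets were called in WT, HRE1ox and HRE2ox, so 0 of 3 and 0 of 5 genes are near those shares.

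Genes of reactive oxygen production and signalling had 2 tested of 18 listed. WRKY6, a transcription factor gene of senescence and defence, stood at 6.46 and 6.17 in WT air and 7.45 and 7.06 in WT hypoxia. It rose by 0.94 ± 0.23 in WT (limma adjusted p = 0.0395) and by 0.95 ± 0.23 in HRE1ox (adjusted p = 0.0244), and the difference in HRE2ox was 0.85 ± 0.23 (adjusted p = 0.0583). The WT call was lost in 10 of the 12 fits that left out 1 array, with adjusted p up to 0.219. The HRE1ox call was lost without either HRE1ox air array (adjusted p = 0.0833 and 0.106) or HRE1ox hypoxia replicate 1 (0.61, adjusted p = 0.14). WRKY53, also a senescence factor, had differences of 0.07, 0.15 and 0.11, and none was called. Of 11 listed zinc finger genes of the STZ type, STZ and AT2G28200 were tested, and AT2G28200 had differences of 0.26, 0.23 and -0.06 that were not called.

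The 12 levels of each member were compared with those of the 7317 probe sets of other single genes that passed the same filter, as a description only, since the arrays share their treatments and fall into air and hypoxia. The pattern most like STZ was that of AT1G59660 (Pearson r = 0.991), followed by AT4G14980 (r = 0.989) and the ubiquitin ligase gene PUB22 (r = 0.988). Like STZ, AT1G59660 was near background in air (means 2.73 to 2.96) and had its highest hypoxia mean in WT, 5.35, against 4.78 in HRE1ox and 4.98 in HRE2ox. For AT2G21640 the nearest were AT5G35735 (r = 0.960), the PLATZ transcription factor gene AT5G46710 (r = 0.928) and AT2G04050 (r = 0.917), of the MATE family of efflux transporters.

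AT2G04050 shared with AT2G21640 the order of the hypoxia differences, over a wider range, but not the order of the group levels. Its group means were 7.23 in WT air and 8.52 in WT hypoxia, 6.33 and 6.31 in HRE1ox, and 4.24 and 7.14 in HRE2ox. Both lines thus stood below WT air even in hypoxia, which was not so for AT2G21640. The hypoxia difference was 1.29 in WT (limma adjusted p = 0.0416), -0.02 in HRE1ox (adjusted p = 0.989) and 2.90 in HRE2ox (adjusted p = 0.000462). AT5G35735 had differences of 1.18, 0.51 and 1.58, and AT5G46710 of 1.16, 0.64 and 1.45. These 3 genes were picked for their likeness to AT2G21640, so the shared order of responses is a description.

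For AT5G51440 the nearest were the glycosyltransferase gene AT2G36970 (r = 0.954), AT4G27652 (r = 0.944) and AT3G23170 (r = 0.933). AT2G36970 had hypoxia differences of 2.46, 2.23 and 1.71 in WT, HRE1ox and HRE2ox, from air means of 2.68 to 2.83, under log2 4. For AT2G29500 they were AT5G52750 (r = 0.934), AT1G13340 (r = 0.908) and AT1G67360 (r = 0.903), a lipid droplet protein gene. AT5G52750 had differences of 2.13, 1.33 and 2.85, and AT1G13340 of 1.3, 0.93 and 1.62. The air means of AT1G13340 were 3.02 to 3.12, and that of AT5G52750 in HRE2ox was 3.73. Sizes measured from air means under log2 4 carry that limit. Between the members themselves r was 0.683 (AT5G51440 with AT2G29500) to 0.903 (STZ with AT5G51440) over the 12 arrays. The nearest genes were picked for the highest r, so their values are no measure to set these against.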

How the data were processed

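The values were the authors' deposited intensities of Affymetrix ATH1 arrays on a linear scale, made with GCRMA, per the submitters' processing notes. Its version and settings are not stated in the labels. Of 22810 probe sets, 64 controls were left out. From the intensities log2(intensity + 1) was computed, and probe sets at log2 4 or more on 2 arrays were kept (13687 kept, 9059 not). Median intensity per array was 32.7 to 35.7. The number of arrays limits the precision.

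limma 3.58.1 in R 4.3.3 fitted 6 group means over 12 arrays (lmFit, eBayes, 6 residual degrees of freedom), with Benjamini-Hochberg adjustment within each comparison. Intervals are 95% and unadjusted. The fit was tested on simulated arrays with independent errors, so that test does not cover the shared deviations between real arrays described below. Genes were named through GEO's platform annotation: 13513 probe sets had 1 gene, 503 several and 8730 none listed. Named besides the 4 members were, per list and hypoxia response, up to 4 called genes with the largest change, all tested genes of lists with 5 or fewer, and the 3 genes most like each member. The 4 members and the lists were chosen with earlier results of these data known. Deviations of same-numbered arrays correlated at 0.67 to 0.75 among WT and HRE1ox groups, whose replicate 1 arrays stand apart in control probe sets, and at -0.58 to -0.24 between these and HRE2ox, so the numbers do not pair all 12 arrays. The blocked values of WT and HRE1ox stand beside the members' results where they change a call. The labels name biological replicates. Alternatives were fits on fewer arrays, a replicate block, median centring, other pseudocounts and filters, a variance trend with robust estimation, and leaving out arrays. The 4 arrays that stand apart were left out or blocked as alternatives chosen after seeing the data.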

Additional observations from a re-analysis of the deposited data

How the results depend on the processing

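Over the alternatives tried for the 4 members, 1011 values kept direction and side of the threshold, 13 lost a call, 15 gained one and 13 changed sign, the last all in differences that were not called. Leaving out an array of another group, or changing the filter or the variance model, cannot change a difference. Many values were thus bound to keep their direction, and the count is no measure of robustness. Where no cause is named, the cause was not tested. STZ was called in the hypoxia response of all 3 genotypes, and AT2G21640 and AT2G29500 in HRE2ox, under every alternative that gave a value. With the arrays of the comparison only, AT2G21640 in WT hypoxia against air (1.22, adjusted p = 0.0864) and STZ in HRE1ox hypoxia against WT hypoxia (-1.01, adjusted p = 0.343, leaving 0 members called) lost their calls, with fewer arrays for the spread. Without the 4 arrays apart, so did AT5G51440 in WT (1.72, adjusted p = 0.143) and HRE1ox (1.12, adjusted p = 0.229, leaving 1 member called) and STZ in HRE1ox hypoxia against WT hypoxia (-1.02, adjusted p = 0.2). AT5G51440 in HRE1ox was also lost with a pseudocount of 16 (0.69, adjusted p = 0.0815) and with no filter (1.46, adjusted p = 0.0662), leaving 1 member called. Signs turned without the 4 arrays apart for HRE1ox minus WT in air in AT2G21640 (0.26) and AT2G29500 (-0.077), and for the difference in response HRE1ox minus HRE2ox in AT5G51440 (-0.048).

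With the replicate number as a block, AT2G29500 in WT (0.58) was called (adjusted p = 0.0338 over 12 arrays, 0.0187 over the 8 WT and HRE1ox arrays), and over those 8 arrays AT2G21640 in HRE1ox hypoxia against WT hypoxia (-0.97, adjusted p = 0.0384), making 2 members called; the replicate block changed no other member's call. With the 4 arrays apart as a block, calls were gained by AT2G29500 in WT (adjusted p = 0.0266), AT5G51440 in HRE2ox (1.17, adjusted p = 0.0389), AT2G21640 in HRE1ox hypoxia against WT hypoxia (-0.97, adjusted p = 0.0174, 2 members called), STZ in HRE2ox hypoxia against WT hypoxia (-0.74, adjusted p = 0.0392, 1 called), and AT2G21640 in HRE2ox air against WT air (-0.93, adjusted p = 0.0246, 1 called), HRE1ox air against HRE2ox air (0.87, adjusted p = 0.0389, 1 called) and HRE1ox minus HRE2ox response (-1.37, adjusted p = 0.0349, 1 called). Under that block AT5G51440 turned sign in HRE2ox minus WT (0.12) and HRE1ox minus HRE2ox (-0.060) in air. A filter at log2 6 called AT2G21640 in HRE2ox air against WT air (-1.04, adjusted p = 0.0463), and AT5G51440 and AT2G29500 had no value under it.

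Leaving out 1 array gave these ranges: AT5G51440 from 1.25 to 1.68 in HRE1ox hypoxia against air (1 to 2 members called), from 0.69 to 1.65 in HRE2ox (3 to 4 called), from -0.062 to 0.19 in HRE1ox minus WT in air, from -0.042 to 0.015 in HRE2ox minus WT in air, from -0.048 to 0.20 and -0.11 to 0.84 in HRE1ox minus HRE2ox in air and hypoxia, and from -0.19 to 0.77 in the difference in response between the lines. STZ ranged from -1.13 to -0.90 and AT2G21640 from -1.18 to -0.75 in HRE1ox hypoxia against WT hypoxia (0 to 2 called; AT2G21640 was called without either WT air array, adjusted p = 0.0471), and AT2G21640 from -1.32 to -0.75 in HRE2ox air against WT air (0 to 1 called; called without WT air replicate 2, adjusted p = 0.0476). In HRE1ox air minus WT air AT2G21640 ranged from -0.35 to 0.22 and AT2G29500 from -0.024 to 0.28. With 1 array left in a group, that array was assumed to vary like the others.

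Counts in the gene lists were less stable. Genes of mitochondrial dysfunction called in HRE1ox fell from 3 to 1 without the 4 arrays apart and ranged from 1 to 3 on leaving out 1 array, and reached 5 in HRE2ox with those arrays as a block. Small heat shock genes ranged from 0 (without the 4 arrays apart) to 3 (8-array block, or those arrays as a block) in WT, with 2 under the replicate block. In HRE1ox 1 was called with the comparison's arrays only, a pseudocount of 16, no filter or without the 4 arrays apart, and 0 to 2 on leaving out 1 array. In HRE2ox 2 were called under the replicate block, with the comparison's arrays only and without the 4 arrays apart, 3 with those as a block, and 1 to 2 on leaving out 1 array. Heat shock factors and large chaperones had 1 call in HRE1ox in the 8-array block. WRKY6 was not called (0 of 2) in WT and HRE1ox with the comparison's arrays only, no filter or without the 4 arrays apart, and called (1 of 2) in HRE2ox with the replicate block, the comparison's arrays only, median centring, and the 4 arrays apart left out or as a block; leaving out 1 array gave 0 to 1 in each genotype. Of the 20 neighbouring group pairs in the order of levels, 1 was called, 1 to 2 on leaving out 1 array and 4 with the 4 arrays apart as a block. Over all probe sets the calls for WT hypoxia against air went from 901 to between 366 and 2202, for HRE1ox from 1696 to between 755 and 3697, for HRE2ox from 953 to between 754 and 1945, for HRE1ox hypoxia against WT hypoxia from 115 to between 0 and 469, and for HRE2ox air against WT air from 128 to between 6 and 799.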
